A study of Homo sapiens with 20 samples.

Results

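H3K4me3 was compared between WM164 cells overexpressing GFP and parental WM164 cells given DMSO for 3 days. WM164 is a human melanoma cell line with a mutant BRAF kinase, shared by both groups, and GFP is a fluorescent protein that is commonly expressed as a control for carrying a transgene. Each group had 2 libraries, made by chromatin immunoprecipitation with the same H3K4me3 antibody from 15 µg of chromatin and sequenced as single reads of 50 bp. The vector, promoter, selection and clonality of the GFP cells, and whether they received DMSO, have no entry in the sources used here. Fixation is described for parental cells and not for GFP cells, so the transgene and the handling of the cells cannot be told apart. The members were all regions that resulted when the peaks of these 4 lists on the 22 autosomes and X were merged across gaps of up to 1000 bp. There were 27358 such regions, against 31428 when the lists of all 10 H3K4me3 libraries of the series were merged in the same way. The other 6 libraries, from cells expressing NRAS Q61K, an activated RAS protein, and from colony and resistant cells kept for 45 and over 90 days in 50 nM dabrafenib, a BRAF inhibitor, were read only at these regions. No GRCh37 gene annotation was used here, so regions are named by GRCh37 position and chromosome band, and the WM164 label was not checked against marker genes.

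H3K4me3, trimethylation of histone H3 at lysine 4, is laid down by the SET1 and MLL methyltransferase complexes on the nucleosomes that flank transcription start sites, and the basal transcription factor TFIID binds it. Narrow peaks are typical of ordinary active promoters, and wide domains are known from genes that define a cell's identity. A peak list records where the signal passed a threshold, so the bases under peaks in a region measure how far the mark could be called along the sequence, not how much of it there was at one point.

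GFP lists held more and shorter peaks than parental lists, while the sequence under peaks differed little. The GFP 1 list held 41806 peaks and the GFP 2 list 45376, against 29258 in parental 1 and 30065 in parental 2. The groups did not overlap, at 43591 ± 2524 peaks in GFP and 29662 ± 571 in parental cells (SD, n = 2 each), a ratio of 1.47. The peaks covered 46.8 and 46.7 Mb in GFP 1 and 2, against 45.3 and 40.7 Mb in parental 1 and 2. The gap between the GFP libraries and parental 1 was thus smaller than the gap between the parental libraries. The median peak was 396 and 366 bp long in the GFP lists, against 840.5 and 752 bp in the parental lists. Peaks shorter than 300 bp made up 41.1% and 42.8% of the GFP lists, against 22% and 25.5% of the parental lists. With 2 libraries against 2, an exact two-sided permutation test cannot give a p below 0.33, so no test was run on these totals. The labels do not state whether replicates are separate cultures. The p-values below rest on the variation between replicates in all 5 groups of the 10 libraries, and that variation may be technical.

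**Figure D1:**
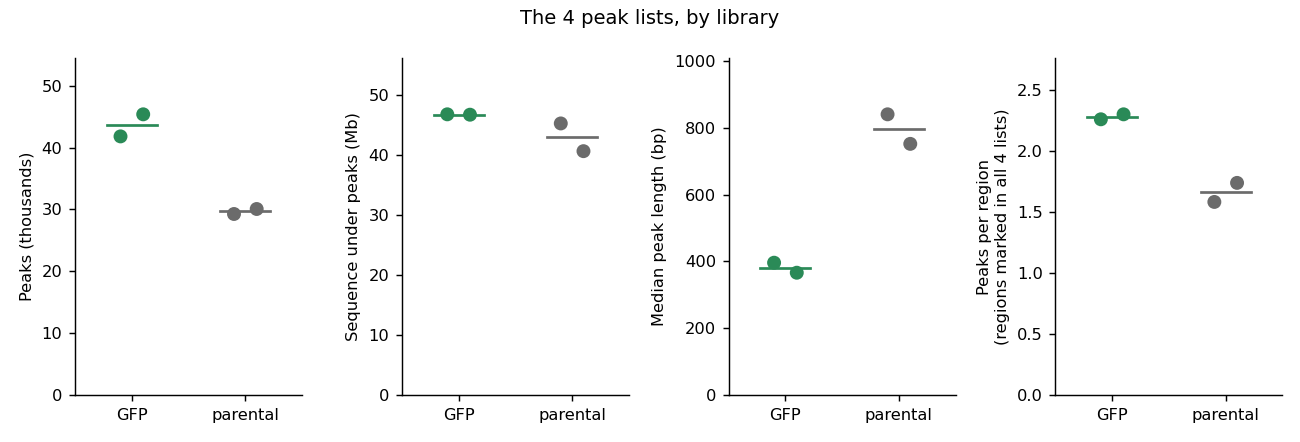
Number of peaks, megabases under peaks, median peak length in bp and mean number of peaks per region marked in all 4 lists, for GFP (green) and parental (grey) libraries. Points are libraries and lines are the means of 2. GFP lists had more and shorter peaks, with 2.26 and 2.30 peaks per shared region against 1.58 and 1.74 in parental lists.

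The lists differed in shortest peak length and summit pileup as well, while the reads per kb implied by the background overlapped between the groups. The shortest peak of a list depends on the fragment length; it was 142 and 153 bp in GFP lists, against 202 and 180 bp in parental lists. The pileup at the median peak's summit was 22 and 20 fragments in GFP lists, against 40 and 33 in parental lists. The background implied 22.9 and 17.7 reads per kb in GFP libraries, against 24.8 and 19.7 in parental libraries. Peaks with a −log10 q-value of at least 10 numbered 18433 and 19103 in GFP lists, against 16406 and 16942 in parental lists, so the ratio was 1.13 among strong peaks. The part of these differences in the results below was not tested.

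Most of the additional GFP peaks lay inside regions that parental cells also marked. Regions marked in all 4 lists held 36472 and 37130 of the GFP peaks, against 25535 and 28056 of the parental peaks. In these 16121 regions, 58.9% of all, GFP 1 and 2 had 2.26 and 2.30 peaks per region, against 1.58 and 1.74 in parental 1 and 2. Means were 2.28 ± 0.0289 in GFP and 1.66 ± 0.111 in parental cells (SD, n = 2 each). Both GFP lists had more peaks than both parental lists at 3666 of these regions (22.7%), and fewer at 241 (1.49%). Several peaks stood in 67.3% and 68.4% of the shared regions in GFP lists, against 41.0% and 49.5% in parental lists. The gap between the groups was present in every width class. In regions with under 1000 bp under peaks, GFP lists had 1.48 and 1.46 peaks per region, against 1.26 and 1.25 in parental lists. In regions of 4000 to 6000 bp the values were 2.83 and 2.93 in GFP lists, against 1.88 and 2.14 in parental lists.

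**Figure D2:**
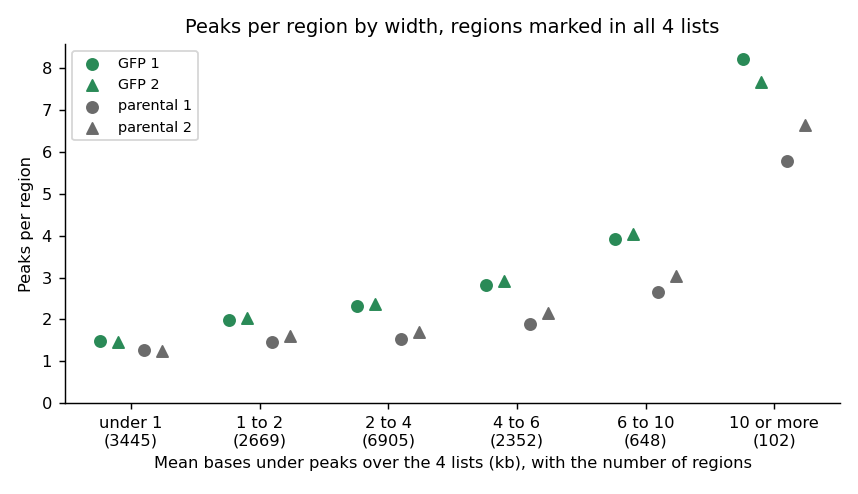
Mean number of peaks per region in GFP (green) and parental (grey) libraries, for the 16121 regions marked in all 4 lists, by the mean bases under peaks over the 4 lists in kb. Each point is a library, and both GFP libraries stand above both parental libraries in each of the 6 width classes.

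The extra peaks reached further out and left more gaps. From the first to the last peak of a shared region, the median span was 2903 and 2896 bp in GFP lists, against 2645 and 2450 bp in parental lists. Peaks filled 89.9% and 88.7% of that span in GFP lists, against 94.0% and 92.2% in parental lists. The longest peak held 81.1% and 79.4% of the covered bases in GFP lists, against 88.2% and 83.9% in parental lists. Of all GFP peaks, 73.8% in GFP 1 and 69.4% in GFP 2 overlapped a parental peak. A further 19.2% and 18.1% lay apart from parental peaks but in a region that parental cells marked, with a median length of 192 and 202 bp. The remaining 6.96% and 12.5% lay in regions without a parental peak. Of the GFP peaks that lay apart in regions marked by parental cells, 43.4% in GFP 1 and 42.3% in GFP 2 overlapped a peak of the other GFP list. In parental 1 and 2, 5.53% and 3.83% of peaks lay apart from GFP peaks in a region that GFP cells marked. Of those, 21.7% and 43.0% overlapped a peak of the other parental list. When all 4 lists were limited to an equal number of peaks by q-value, peaks per region came to 1.73 and 1.72 in GFP lists, against 1.59 and 1.72 in parental lists, so the groups overlapped and the ratio of their means was 1.04, in place of 1.37.

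Few regions were marked in 1 group alone, by comparison with the regions in which replicates differed. A region was called gained when both GFP lists and neither parental list had a peak in it, which held for 1123 regions, 4.1% of the 27358. It was called lost in the reverse case, which held for 277 regions, 1.01% of all and 1.64% of the 16931 regions marked in both parental lists. By comparison, 5740 regions had a peak in 1 GFP list and in no other of the 4, 4196 of them in GFP 2. A further 1374 had a peak in 1 parental list alone. GFP 1 regions were missed by GFP 2 in 10.9% of cases, and by parental 1 and 2 in 15.2% and 18.5%. GFP 2 regions were missed by GFP 1 in 21.3% of cases, and by parental 1 and 2 in 24.9% and 28.0%. Parental 1 regions were missed by GFP 1 and 2 in 9.75% and 9.55% of cases, and by parental 2 in 13.1%. Parental 2 regions were missed by GFP 1 and 2 in 5.94% and 5.96% of cases, and by parental 1 in 5.68%. For GFP regions the shares missed in parental lists were thus above the share missed in the replicate, and for parental regions the shares missed in GFP lists were below or close to it. These shares move with list length and were not tested.

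The overlap of covered bases was measured as well. The Jaccard index, the shared part of all bases covered by either list, was 0.790 between GFP 1 and 2 and 0.807 between parental 1 and 2. It was 0.769 ± 0.0138 between the groups (SD over 4 pairs that share libraries), with a range of 0.753 to 0.787. Every pair between groups thus lay below both replicate pairs, the highest of them close to the GFP pair. With peaks of −log10 q of at least 10, the range between groups was 0.817 to 0.840, against 0.855 for the GFP pair and 0.840 for the parental pair, so the highest pair between groups then reached the parental pair.

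Gained and lost regions were short and weak. Gained regions had a median of 218 and 246 bp under peaks in GFP 1 and 2, and lost regions a median of 345 and 249 bp in parental 1 and 2, against 2666, 2618, 2556 and 2310 bp for GFP 1, GFP 2, parental 1 and parental 2 in the regions marked in all 4 lists. Only 26 gained regions had a −log10 q of at least 10 in both GFP lists, and only 2 lost regions had it in both parental lists. At least 1000 bp under peaks in both lists was reached by 14 gained and 3 lost regions. When the regions marked in both GFP lists were ranked by peak strength, the weakest quartile held 1078 of the 1123 gains, and no region of the upper 2 quartiles lacked a peak in either parental list. Among regions marked in both parental lists, the weakest quartile held 276 of the 277 losses, and every region of the upper 2 quartiles was marked in both GFP lists. Gained regions lay a median of 27.0 kb from the nearest region marked in all 4 lists, and 30.2% lay within 10 kb. Lost regions lay a median of 45.8 kb away, and 12.3% lay within 10 kb.

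**Figure D3:**
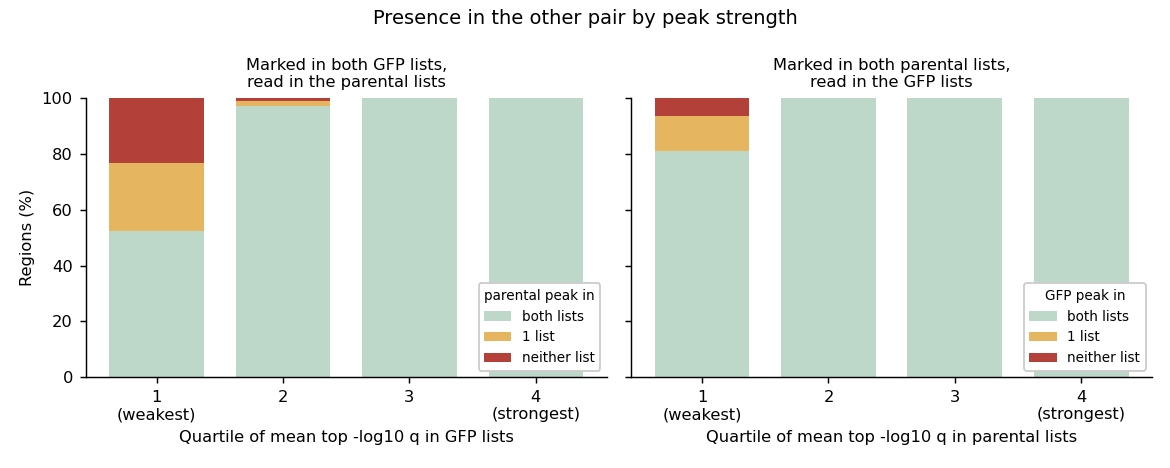
Regions marked in both GFP lists (left) and in both parental lists (right), in quartiles of rising mean top −log10 q, with the percentage that had a peak in both, 1 or neither list of the other pair. Absence from the other pair was nearly limited to the weakest quartile, where 23.4% of GFP regions had no parental peak and 6.52% of parental regions had no GFP peak.

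The count of gains rested on the requirement that both lists agree. Leaving out a list removes a condition, which tends to raise the counts of gains and losses by construction. Gains numbered 5493 without GFP 1, 2787 without GFP 2, 1986 without parental 1 and 1496 without parental 2. Losses numbered 567, 528, 683 and 1259 when the same libraries were left out in turn. With lists of equal length, gains numbered 362 and losses 728, so the excess of gains over losses turned round.

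The strongest gained regions were marked in NRAS Q61K cells too and mostly unmarked in drug-treated cells. They are the 8 with the highest mean −log10 q in GFP lists. At 4q35.2 (chromosome 4, 191043777 to 191044291), 0.11 Mb from the chromosome end, peaks covered 402 and 485 bp in GFP 1 and 2 and 0 bp in both parental lists. At 2q35 (chromosome 2, 217557786 to 217559162), they covered 1040 and 1335 bp in GFP 1 and 2 and 0 bp in both parental lists. At 9q32 (chromosome 9, 115949351 to 115951694), the widest of the 8, they covered 1721 and 1130 bp in GFP 1 and 2 and 0 bp in both parental lists. The pairs did not overlap, as the choice of these regions requires. NRAS Q61K lists held 511 and 459 bp at 4q35.2, 1377 and 1377 bp at 2q35 and 2243 and 2281 bp at 9q32. At 10p15.1 (chromosome 10, 4719358 to 4720630), GFP lists held 1273 and 893 bp and parental lists 0 bp, and the NRAS Q61K lists held less, at 415 and 244 bp. The other 4 lay at 19p13.2, 16q24.2, 10q21.2 and 15q15.2, with 225 to 770 bp in GFP lists. NRAS Q61K 2 had no peak at 10q21.2, the exception among the 8. Of the 8 regions, 2q35 alone had a peak in a drug-treated library, at 314 and 155 bp in resistant 1 and 2. Summit pileups at the 8 regions were 23 to 67 fragments, so the counts behind each peak were small.

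The strongest lost regions were of similar size, and 2 of the 8 had the mark in every library outside the GFP pair. At 20p11.23 (chromosome 20, 20065549 to 20067597), peaks covered 0 bp in both GFP lists, against 1602 and 1232 bp in parental 1 and 2. NRAS Q61K lists held 1656 and 1581 bp there, colony lists 2049 and 1952 bp, and resistant lists 0 bp. At 2q14.2 (chromosome 2, 119532124 to 119532841), peaks covered 0 bp in both GFP lists, against 712 and 581 bp in parental 1 and 2. Each of the other 6 lists held 482 to 718 bp at 2q14.2, so the GFP pair alone lacked the peak. The same held at 5q31.3 (chromosome 5, 140420015 to 140420812), with 0 bp in both GFP lists, 596 and 766 bp in parental lists and 398 to 798 bp in the other 6. At 16p11.2 (chromosome 16, 33963149 to 33964130), 0.636 Mb from the centromeric band, GFP lists held 0 bp and parental lists 495 and 226 bp, and no other list had a peak. The parental pileups there, 115 and 110 fragments, were the highest among the lost regions named, but the folds over local background, 1.96 and 2.85, were the lowest, so the local background was high. The other 4 lay at 1p31.3, 14q31.3, 2q12.1 and again at 5q31.3, with 327 to 759 bp in parental lists.

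Many gained regions had a peak in NRAS Q61K lists as well, and few had a peak in drug-treated lists. Of the 1123 gained regions, 428 (38.1%) had a peak in both NRAS Q61K lists, 17 (1.51%) in both colony lists and 28 (2.49%) in both resistant lists. Over all 6863 regions unmarked in both parental lists, which include the gained ones, the shares were 11.3%, 0.641% and 0.714%. Over all 18463 regions marked in both GFP lists they were 92.2%, 72.0% and 68.5%, so the gained regions lay above the first set and below the second. A total of 352 gained regions had a peak in both NRAS Q61K lists and in no drug-treated list, and 387 had none in any of the other 6 lists. Of the 277 lost regions, 120 (43.3%) had a peak in both NRAS Q61K lists, 50 (18.1%) in both colony lists and 43 (15.5%) in both resistant lists. Over all 16931 regions marked in both parental lists the shares were 96.1%, 78.8% and 74.8%, and over all 1651 regions unmarked in both GFP lists they were 18.6%, 6.06% and 6.90%. The lost regions thus also lay between the sets they belong to. A total of 18 lost regions had a peak in all 6 other lists, and 74 had none in any of them. NRAS Q61K lists were themselves long, at 40648 and 37649 peaks, and colony and resistant lists short, at 19111 to 21573 peaks, so these shares move with list length too.

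Covered bases were then tested region by region, on log2(bases under peaks + 200) with limma over all 10 libraries. Of the 20244 regions with a peak in at least 2 of the 4 lists, 862 (4.26%) were wider in GFP cells and 559 (2.76%) narrower at a Benjamini-Hochberg adjusted p under 0.05. Of the wider regions, 716 were gained regions, which entered the test only through the GFP lists, 34 had a peak in 1 parental list and 112 had a peak in all 4. Of the narrower regions, 232 were lost regions, which entered only through the parental lists, 59 had a peak in 1 GFP list and 268 had a peak in all 4. Among regions marked in all 4 lists, narrower calls thus outnumbered wider ones by 268 to 112. That balance turned round without centring the libraries on shared regions, which shifted the median difference by 0.12 on the log2 scale and gave 94 narrower and 424 wider regions in all 4 lists, and 351 and 1327 in all. A fit of the 4 libraries alone, without the spread of the other groups, called 8 regions wider and 3 narrower, with 3200 at an unadjusted p under 0.05. Without GFP 1 the counts were 11 wider and 105 narrower, without GFP 2 they were 8 and 78, without parental 1 they were 965 and 216, and without parental 2 they were 733 and 185.

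**Figure D4:**
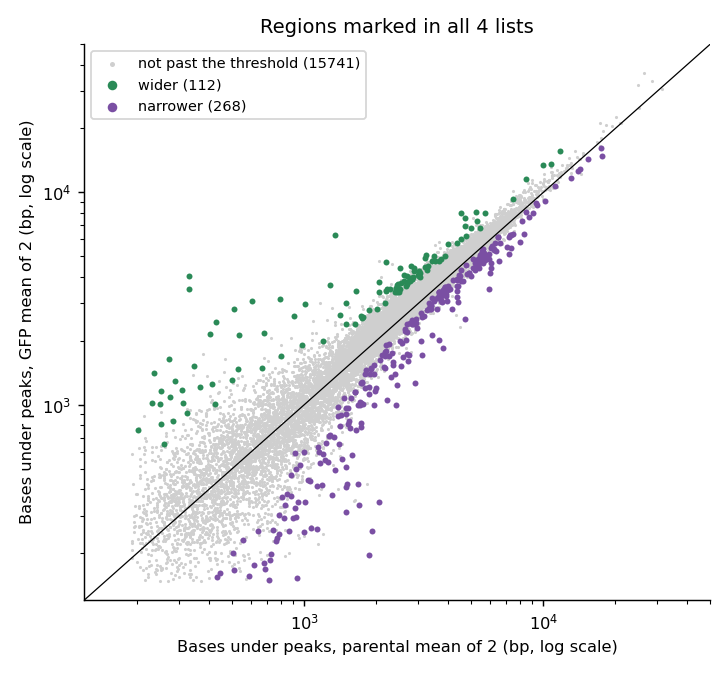
Mean bases under peaks in GFP libraries (vertical) against parental libraries (horizontal), both in bp on log scales and not centred, for the 16121 regions marked in all 4 lists, with the line of equality. The 112 wider regions (green) and 268 narrower regions (purple) in part overlap the grey band of regions that did not pass the threshold. Their centred log2 differences began at 0.19 and −0.17. The 5th to 95th percentile over all shared regions was −0.50 to 0.31. The largest differences are at regions with few bases in the lower group.

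Called differences in shared regions were modest for most and large for a few. The 112 wider regions had a median log2 difference of 0.45 and the 268 narrower regions a median of −0.49, against a median of −0.04 over all 16121 shared regions. The median of the mean bases under peaks was 3578 bp in GFP and 2420 bp in parental cells at the wider regions, and 2018 bp in GFP and 2759 bp in parental cells at the narrower regions. NRAS Q61K cells had 3121 bp at the wider and 2631 bp at the narrower regions, between the GFP and parental values in both sets. Both GFP lists lay above both parental lists at 37.8% of all shared regions and below them at 10.5%, before centring.

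Peak height was set beside width in the shared regions. The fold of the strongest peak over local background, the authors' value for each peak, had a median of 13.4 and 14.2 in GFP lists, against 11.3 and 11 in parental lists, over the regions marked in all 4. Each list was then scaled to its own median over these regions, which by itself balances the directions: both GFP lists were higher than both parental lists at 24.5% of the regions and lower at 24%. At the 112 wider regions both GFP lists were higher at 56 (50.0%) and lower at 13 (11.6%). At the 268 narrower regions they were higher at 26 (9.70%) and lower at 136 (50.7%). Width and height thus often moved the same way, though both come from the same libraries and are not independent.

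The largest rises lay at places where parental cells had small peaks. Over all regions marked in all 4 lists, the median cover was 2666 and 2618 bp in GFP 1 and 2. At 7q21.11 (chromosome 7, 83997595 to 84002077), peaks covered 4248 and 3848 bp in GFP 1 and 2, against 292 and 368 bp in parental 1 and 2. The groups were far apart, with a log2 difference of 2.88 (SE 0.183, adjusted p = 0.000884). The strongest peak there had a summit pileup of 67 and 68 fragments in GFP lists, against 22 and 21 in parental lists. At 10p14 (chromosome 10, 7687664 to 7691792), peaks covered 3511 and 3471 bp in GFP lists, against 455 and 201 bp in parental lists (log2 difference 2.72, SE 0.218, adjusted p = 0.0014). At 6q21 (chromosome 6, 106964970 to 106973101), the widest of these regions, they covered 6656 and 5982 bp in GFP lists, against 1234 and 1461 bp in parental lists (log2 difference 1.95, SE 0.144, adjusted p = 0.00112). At 20q12 (chromosome 20, 39630983 to 39634107), they covered 3054 and 2586 bp in GFP lists, against 585 and 426 bp in parental lists, with a log2 difference of 1.98. GFP and parental libraries did not overlap at any of these 4 regions, which the choice of the largest rises largely fixes.

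The remaining rises marked in all 4 lists differed in how the bases were made up. At 12q21.33 (chromosome 12, 89763809 to 89769542), 6 peaks in each GFP list covered 3216 and 2953 bp, against 1 peak of 622 and 589 bp in the parental lists (log2 difference 1.90, adjusted p = 0.00214). The summits had 23 and 20 fragments in GFP lists, against 27 and 22 in parental lists, and folds over local background of 5.63 and 5.29 in GFP lists, against 4.66 and 4.83 in parental lists. At 16p11.2 (chromosome 16, 33878460 to 33884623), 0.715 Mb from the centromeric band, 9 and 10 peaks covered 1878 and 3009 bp in GFP lists, against 561 and 294 bp in parental lists. This call was the least stable, with an adjusted p of 0.0452 that passed the threshold in 3 of 16 alternatives. Its summits reached 60 and 37 fragments in GFP lists, against 61 and 49 in parental lists, at folds over local background of 3.4 and 5.05 in GFP lists, against 2.5 and 2.41 in parental lists.

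Rises of the same kind were called where only 1 parental list had a small peak. At 15q26.3 (chromosome 15, 101336454 to 101343791), peaks covered 6059 and 5405 bp in GFP 1 and 2, against 0 and 224 bp in parental 1 and 2 (adjusted p = 0.00112). At 8p22 (chromosome 8, 16607115 to 16609742), they covered 2031 and 1907 bp in GFP lists, against 251 and 0 bp in parental lists (adjusted p = 0.00586). At 10p15.1 (chromosome 10, 4283366 to 4286418), they covered 2253 and 1300 bp in GFP lists, against 0 and 225 bp in parental lists (adjusted p = 0.0143). GFP and parental lists were apart by over 1000 bp at each. The GFP lists alone sufficed for entry to the test, and with a list at 0 bp the fitted value depends on the 200 bp added.

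All 9 of these rises were also covered in NRAS Q61K lists, and 7 were empty in drug-treated lists. NRAS Q61K 1 and 2 held 3148 and 3054 bp at 7q21.11, 3860 and 3533 bp at 10p14, and 7673 and 7158 bp at 6q21. They held 3125 bp each at 20q12, 3794 and 3056 bp at 12q21.33, and 6548 and 5690 bp at 15q26.3. Colony and resistant lists held 0 bp at 7 of the 9. The exceptions were 16p11.2, with 371 bp in colony 1, and 15q26.3, where resistant 1 and 2 held 6107 and 6263 bp and both colony lists 0 bp. Both transgene groups had peaks at these regions, but so did nearly all shared regions. Of the 16121 regions marked in all 4 lists, 98.1% had a peak in both NRAS Q61K lists. Of the same regions, 13.1% had a peak in neither colony list and 19.1% in neither resistant list. The values for NRAS Q61K are given beside those of GFP cells without a test.

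**Figure D5:**
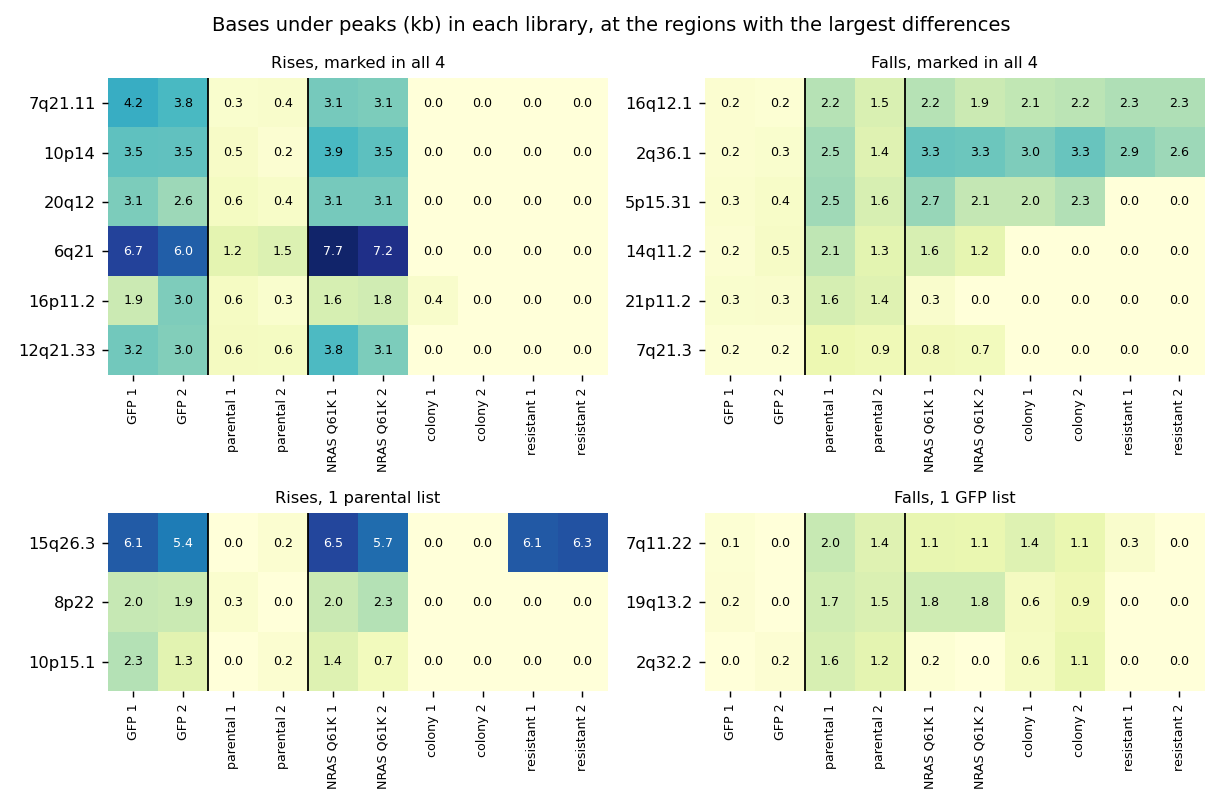
Bases under peaks in kb (number and colour) in each of the 10 libraries, GFP first, at the 9 regions with the largest rises (left) and the 9 with the largest falls (right). Rises were also covered in NRAS Q61K libraries and mostly empty in colony and resistant libraries, and most regions that fell in GFP libraries were covered in NRAS Q61K libraries.

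The largest falls were regions of moderate width in parental cells with a short peak in GFP cells. At 16q12.1 (chromosome 16, 52578589 to 52580911), peaks covered 238 and 153 bp in GFP 1 and 2, against 2241 and 1501 bp in parental 1 and 2 (log2 difference −2.50, SE 0.157, adjusted p = 0.000884). At 2q36.1 (chromosome 2, 222435604 to 222438950), they covered 223 and 285 bp in GFP lists, against 2478 and 1352 bp in parental lists (log2 difference −2.29, SE 0.194, adjusted p = 0.00192). At 5p15.31 (chromosome 5, 8762748 to 8765718), they covered 273 and 425 bp in GFP lists, against 2532 and 1583 bp in parental lists (log2 difference −2.15, adjusted p = 0.00389). The groups did not overlap at these 3 regions, which the choice of the largest falls largely fixes. Parental 1 was well above parental 2 at each. Summit pileups were 13 to 15 fragments in GFP lists, against 23 to 35 in parental lists, at folds over local background of 3.33 to 4.32 in GFP lists, against 4.66 to 5.99 in parental lists.

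Falls at 14q11.2, 7q21.3 and 21p11.2 completed the set marked in all 4 lists. At 14q11.2 (chromosome 14, 23316592 to 23319992), peaks covered 196 and 481 bp in GFP lists, against 2102 and 1271 bp in parental lists. At 7q21.3 (chromosome 7, 93852789 to 93853803), they covered 153 bp in each GFP list, against 996 and 869 bp in parental lists. At 21p11.2 (chromosome 21, 9825482 to 9827565), on the short arm of an acrocentric chromosome and 1.07 Mb from the centromeric band, they covered 287 and 340 bp in GFP lists, against 1628 and 1351 bp in parental lists. The call at 21p11.2 had an adjusted p of 0.032 and passed the threshold in 9 of 16 alternatives. The calls at 14q11.2 and 7q21.3 passed it in 13 and 15 of 16. The pileup at 21p11.2 was 33 and 39 fragments in GFP lists, against 169 and 155 in parental lists, far above the parental medians of 40 and 33. The fold over local background was nevertheless higher in GFP lists, at 2.48 and 2.84, against 2.03 and 1.99 in parental lists, so the local background was higher in parental lists too and the fall in covered bases was not matched by a fall in fold. Such short arms are rich in repeats, and the sources used here do not state the treatment of reads that match several places.

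Where only 1 GFP list kept a peak, the parental bases were of the same order. At 7q11.22 (chromosome 7, 70201607 to 70204391), peaks covered 142 and 0 bp in GFP 1 and 2, against 1997 and 1350 bp in parental 1 and 2 (adjusted p = 0.0104). At 19q13.2 (chromosome 19, 43031523 to 43033333), they covered 160 and 0 bp in GFP lists, against 1747 and 1495 bp in parental lists (adjusted p = 0.00347). At 2q32.2 (chromosome 2, 191113662 to 191115228), they covered 0 and 183 bp in GFP lists, against 1567 and 1239 bp in parental lists (adjusted p = 0.0105). GFP and parental lists were again apart at each, which the choice of these regions largely fixes. Here the parental lists alone sufficed for entry to the test, and the fitted value depends on the 200 bp added.

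The falls did not extend to the NRAS Q61K lists at most regions. NRAS Q61K 1 and 2 held 2237 and 1886 bp at 16q12.1, 3347 and 3295 bp at 2q36.1, 2679 and 2052 bp at 5p15.31, and 1811 bp each at 19q13.2. They held 339 and 0 bp at 21p11.2 and 153 and 0 bp at 2q32.2, the 2 exceptions among the 9. At 16q12.1 and 2q36.1 all 6 other lists had wide cover, from 1886 to 3347 bp, so the GFP pair alone was low there. Of the 18 named regions with a peak in both pairs, 6 kept an adjusted p under 0.05 when the 4 libraries were fitted alone, namely 7q21.11, 10p14, 20q12, 6q21, 12q21.33 and 15q26.3. All 6 were rises, and the other 12 had adjusted p-values of 0.0821 to 0.136 in that fit.

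The fit of the 4 libraries alone also called 5 regions outside the named set, chosen here by that fit. The calls at 4p15.32 and 5q31.3 are of regions with 0 bp in both lists of 1 pair, which entered only through the other pair and have no measured spread in the empty one, so only their bases are given. At 4p15.32 (chromosome 4, 16074375 to 16077659), peaks covered 0 bp in both GFP lists, against 2858 and 2056 bp in parental lists. At 11q23.2 (chromosome 11, 114165453 to 114172267), they covered 3726 and 3296 bp in GFP lists, against 6211 and 5587 bp in parental lists. At 7p21.1 (chromosome 7, 20197065 to 20202422), they covered 2661 and 2385 bp in GFP lists, against 5218 and 4178 bp in parental lists. These 3 were narrower, and NRAS Q61K lists held 3285 bp each at 4p15.32, 5988 and 5382 bp at 11q23.2 and 5358 and 5346 bp at 7p21.1. At 15q21.3 (chromosome 15, 56205063 to 56209914), GFP lists held 4759 and 4391 bp, against 2392 and 2254 bp in parental lists. That rise had an adjusted p of 0.0476 in the fit of 4 libraries and 0.232 in the fit of 10. The last of the 5 lay at 5q31.3.

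Band 5q31.3 was singled out after its values were seen and held several of the regions above. The band is known for the clustered protocadherin genes, which encode cell adhesion proteins of neurons, but genes were not placed on these positions. Of its 82 regions, 3 were gained and 5 lost, against 4.1% and 1.01% of all regions, so its gains were near the overall share. Wider and narrower calls numbered 4 and 7 of the 82, against 3.15% and 2.04% of all regions, tested or not. All 5 lost regions were among the narrower ones. The gained regions were among the wider ones, except that at 143571502 to 143571734, with 174 and 233 bp in GFP lists. A band chosen for its values supports no statement on how often calls fall there. Besides the lost region at 140420015, a lost region at chromosome 5, 140588274 to 140589032, held 0 bp in both GFP lists, against 759 and 564 bp in parental lists. Another, at 140535462 to 140535828, held 0 bp in both GFP lists, against 303 and 318 bp in parental lists. At 140248497 to 140249132, GFP lists held 142 and 0 bp, against 610 and 577 bp in parental lists. NRAS Q61K lists had 185 to 713 bp at these 3 regions, so the mark was present there. Less than 1 Mb away, at 140901901 to 140904264, peaks covered 2343 and 2298 bp in GFP lists and 0 bp in both parental lists, the widest gain in the band. Just before it, at 140891844 to 140894314, a region marked in all 4 lists held 1584 and 1501 bp in GFP lists, against 2277 and 2401 bp in parental lists (log2 difference −0.67, adjusted p = 0.0138).

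Gains and losses were spread over all chromosomes analysed. The share of regions gained was highest on chromosome 21, at 6.62% (21 of 317), and chromosome 10, at 5.41% (57 of 1053). It was lowest on chromosome 11, at 2.29% (27 of 1180), and chromosome 17, at 3.03% (41 of 1352). The share lost was highest on chromosome 21, at 2.21% (7 of 317), and chromosome 22, at 1.97% (12 of 609), and lowest on X, at 0.251% (2 of 796), and chromosome 6, at 0.490% (7 of 1428). Regions in centromeric bands were gained in 31 of 434 cases (7.14%) and lost in none, and regions in bands of variable stain were gained in 12 of 123 (9.76%). Over the bands that stain light in Giemsa, 3.90% were gained and 0.997% lost. These are counts of neighbouring regions that are not independent, and they were not tested.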

How the data were processed

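The authors deposited 1 narrowPeak list per library. Tools credited in the submitters' processing notes are MACS2 2.1.2, BWA, deepTools 2.5.4 and SAMtools, and the build is named there as GRCh37 or hg19; no step is assigned to any of them. The sources used here do not describe the use of inputs, duplicate reads and reads with several matches. Peaks were called per library. Each deposited peak has a start and an end in bases, a score that is the whole part of 10 times the −log10 q-value in all but 4 peaks, all of GFP 1, a fold ratio of summit over local background, and −log10 p-value and −log10 q-value at the summit, all per the file layout of the authors' lists. Positions were turned to counting from 1. The 93, 164, 73 and 79 peaks of GFP 1, GFP 2, parental 1 and parental 2 on other sequences were left out. The lists hold no read counts: summit pileup and background were solved from fold and p under the Poisson test of MACS2, and all solved peaks gave whole pileups within 0.0005 in −log10 p. Implied reads per kb are the 1st percentile of background over the shortest peak, taken as the fragment length. Groups came from the sample titles, and the series' 10 inputs were not used.

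Peaks within 1000 bp were merged into regions, and a peak of any overlap counted as presence. For covered bases, limma 3.58.1 (R 4.3.3) was applied to log2(bases + 200), with 5 group means over 10 libraries, each centred on its median over regions covered in all 10, eBayes (trend option) and adjustment by Benjamini-Hochberg over 20244 regions at 0.05, two-sided. Where a pair had no peak, bases are given in place of a fold, since the fitted value depends on the 200 bp and the pair has no measured spread. The procedure was tested on simulated data with normally distributed values. Changes were added only at regions with high mean cover, so recovery at short regions or regions empty in a pair was not tested. Same-numbered parental and GFP libraries did not deviate together in covered bases (correlation −0.015 over regions). Whether they were prepared together cannot be told from this, and they were not treated as pairs. Bands came from the hg19 table of circlize 0.4.16. Python 3.11.15 with pandas 2.3.3, numpy 2.4.6, scipy 1.17.1 and matplotlib 3.10.9 served for the rest.

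Regions were named by rule: the 8 gained and 8 lost with the highest mean −log10 q, the 6 largest rises and falls past the threshold in all 4 lists, and the 3 largest each way with a peak in 1 list of the lower pair. The members, lists and rules were chosen with earlier results of these data known. Gene lists and cell type markers had been planned for an annotation of GRCh37 and were not analysed here. Alternatives were stricter, longer or equally many peaks, other merging and presence rules, pseudocounts of 50 and 1000 bp, other centring, filters and variance models, the 4 libraries alone, a replicate block, and each of the 4 libraries left out.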

Additional observations from a re-analysis of the deposited data

How the results depend on the processing

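The counts depended on the peak threshold and on list length. Gained and lost regions numbered 388 and 125 with peaks of −log10 q of at least 10, 362 and 728 with lists of equal length, 496 and 435 with peaks of at least 202 bp, and 3153 and 441 when only overlapping peaks were merged. From 200 bp of presence there were 527 gains and 403 losses. Leaving out 1 library gave 1496 to 5493 gains and 528 to 1259 losses. Wider and narrower regions numbered 305 and 172 with the stricter peaks, 311 and 847 with equal lists, 429 and 518 with the longer peaks, 2494 and 789 with overlapping peaks only, 300 and 652 with 1000 bp added, 1327 and 351 without centring, 375 and 406 without the filter, 28 and 71 in a fit of regions marked in all 4 lists, and 8 and 3 in a fit of the 4 libraries. Leaving out 1 library gave 8 to 965 wider and 78 to 216 narrower regions; the group left with 1 library is then assumed to vary like the others. With the replicate block there were 509 wider and 422 narrower regions. Whether same-numbered libraries belong together is not known here. Fewer samples and fewer regions tested act by construction, and for the other settings the cause was not tested. The ratio of GFP to parental peaks was 1.47, 1.13 with the stricter and 1.17 with the longer peaks, and fixed at 1 by equal lists. The ratio of bases was 1.09, and 1.02 to 1.05 under these settings. In alternatives added after the data were seen, the ratio of peaks per shared region was 1.37, and 1.09 with the stricter peaks, 1.04 with equal lists and 1.17 with the longer peaks. The mean Jaccard index between groups was 0.769, and 0.826, 0.795 and 0.784 in the same order. Of gained regions 54.1%, and of lost regions 52.0%, were marked in both NRAS Q61K lists with the stricter peaks. For the 18 named regions with a peak in both pairs, 40 of 291 alternative values fell short of the threshold. No such count is given for the 16 gained or lost ones. They entered the test through the marked pair alone, and the empty pair has no measured spread. No value changed sign, which the choice of regions whose groups do not overlap largely fixes. The weakest peaks rest on summit pileups near 12 to 17 fragments, the 5th percentiles of the lists. A region without a peak is thus not shown to lack the mark, and the part of sequencing depth was not tested.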
